A study of Rattus norvegicus with 8 samples.

Results

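The genes described here are those of the response to amino acid shortage that runs through the transcription factor ATF4. Members were taken by gene symbol from a list of 42 genes holding the factor, its partners and its usual targets, and 41 of the 42 were found among the 23487 genes of the count table. Nupr1 was the symbol with no match. The macrophages came from the peritoneal cavity of female Wistar rats, 8 weeks old, that had received an intraperitoneal injection of multi-walled carbon nanotubes. In the CNT-7 group the particles were the needle-like, mesotheliomagenic MWCNT-XNRI-7, and in the CNT-T group they were tangled nanotubes that are not mesotheliomagenic. Cells high for CD11b/c and dim for His48 were sorted at day 15 from 4 rats per group, each rat giving its own library. Both groups carried particles, and macrophages of untreated rats were not analysed here. Total estimated counts ran from 27195157 in CNT-T rat 13 to 33732981 in CNT-T rat 2.

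ATF4 is translated when eIF2 is phosphorylated, which the kinase GCN2 (Eif2ak4) does when uncharged tRNA accumulates and PERK (Eif2ak3) does when unfolded protein loads the endoplasmic reticulum. With C/EBP partners it then raises genes that make, import and charge amino acids. Because ATF4 is controlled largely at translation, its mRNA and its activity need not move together.

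The sorted cells carried macrophage markers in every rat. Mean levels after CNT-7 and CNT-T were 1220 and 1531 CPM (estimated counts scaled to library size with TMM factors) for Csf1r, 558 and 709 CPM for Cd68, and 271 and 592 CPM for Adgre1, all 3 called lower after CNT-7, Cd68 not in every fit with a rat left out (adjusted p up to 0.160 in edgeR). Of the same list Cd163 (means of 179.8 and 582 CPM) and Fcgr1a (221 and 322 CPM) were also called lower, Cd14 was called higher (means of 275 and 199.9 CPM), while Msr1 (2155 and 1970 CPM), Mrc1, Mertk and Lyz2 were not called. The mast cell list of 7 genes summed to at most 1.78 CPM in any rat, and the mesothelial and fibroblast list of 10 genes to at most 2.01 CPM.

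Libraries differed within the groups. CNT-T rat 13 had the highest value of its group for 24 of the 38 members tested, against 2 for rat 1, 12 for rat 2 and 0 for rat 12. Over all 12124 genes tested it was the highest of its group for 29.2% of them. In the CNT-7 group rat 11 was the highest for 19 of the 38 members (50.0%, beside 26.9% of all genes), and CNT-T rat 1 was the lowest of its group for 21, beside 29.8% of all genes.

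A set of 38 members passed the filter on low counts, and 8 of them differed between the groups at an adjusted p under 0.10 in edgeR's quasi-likelihood test. Higher after CNT-7 were 3 members (Ddit4, Vldlr and Slc1a5), where 13.9% of all genes tested were higher. Lower after CNT-7 were 5 members (Phgdh, Psat1, Psph, Mthfd1l and Slc7a5), where 14.0% of all genes were lower. In either direction 27.9% of all genes tested were called, so the share of members, 21.1%, was not above that of the table. The median log2 fold change of the 38 members, CNT-7 over CNT-T, was -0.09, beside 0.01 for all genes tested. The groups did not overlap for 6 members, beside 24.9% of all genes.

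**Figure D1:**
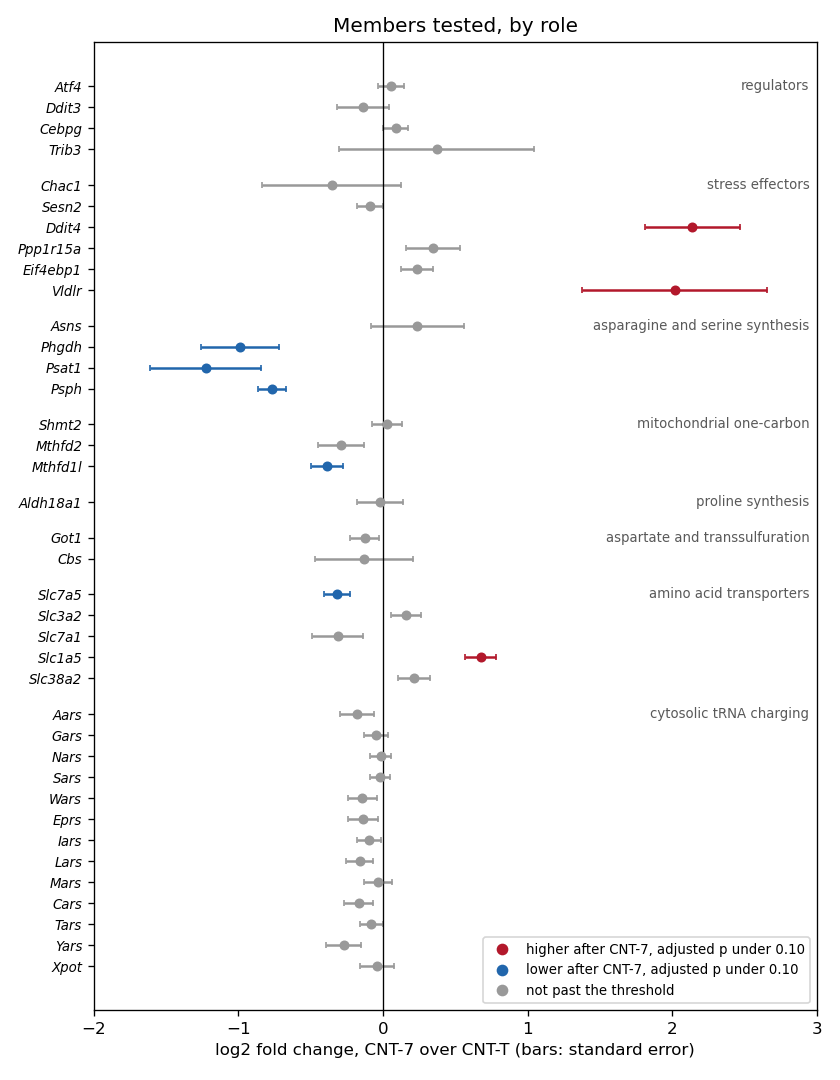
Change between CNT-7 and CNT-T (log2 ratio, positive where CNT-7 is higher) for the 38 members tested, grouped by role, with bars giving the standard error (4 rats per group). Coloured points mark the 3 members higher and the 5 lower after CNT-7. The 13 tRNA charging genes, none of them called, run from -0.27 to -0.02.

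The factor itself showed no difference past the test. Atf4 was at 145, 184, 164 and 152 CPM in CNT-7 rats 3, 5, 10 and 11, and at 160.0, 145, 147 and 168 CPM in CNT-T rats 1, 2, 12 and 13. The groups overlapped over most of their range, and CNT-7 rat 5 was the highest of the 8. The log2 fold change was 0.06 (SE 0.09, adjusted p = 0.711 in edgeR), and it was -0.01 without CNT-7 rat 5. Ddit3, which encodes the pro-apoptotic partner CHOP, was at 11.2, 9.45, 8.20 and 14.2 CPM after CNT-7 and at 9.88, 12.95, 10.7 and 13.9 CPM after CNT-T. Its values also overlapped, with CNT-7 rat 11 highest (log2 fold change -0.14, SE 0.18, adjusted p = 0.641 in edgeR). Cebpg, the C/EBP partner of ATF4, had means of 88.3 and 83.1 CPM. Trib3, a pseudokinase that feeds back on the factor, was at 0.591, 4.69, 2.74 and 2.32 CPM after CNT-7 and at 1.37, 0.887, 0.890 and 4.91 CPM after CNT-T. CNT-7 rat 5 and CNT-T rat 13 were both high, and the groups overlapped. Its log2 fold change of 0.37 was 1.30 without CNT-T rat 13 and -0.09 without CNT-7 rat 5, not called in any of these fits. Of the 4 regulators tested none was called by edgeR or by DESeq2, beside 27.9% of all genes in edgeR, and 0 had an unadjusted p under 0.05.

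Among 6 effectors of the stress response, 2 rose after CNT-7 (33.3%, beside 13.9% of all genes). Ddit4, which encodes the mTORC1 inhibitor REDD1, was at 3.32, 3.75, 4.51 and 3.29 CPM in CNT-7 rats 3, 5, 10 and 11 and at 1.34, 0.384, 0.725 and 0.931 CPM in CNT-T rats 1, 2, 12 and 13. Every CNT-7 rat lay above every CNT-T rat, at low levels in both groups. It rose by a log2 fold change of 2.14 (SE 0.33, adjusted p = 0.00235 in edgeR). Vldlr, a lipoprotein receptor, had means of 2.20 and 0.547 CPM (log2 fold change 2.02, SE 0.64, adjusted p = 0.0514 in edgeR), and its groups overlapped. CNT-T rat 13 was at 1.36 CPM for Vldlr, against 0.207 to 0.326 CPM in the remaining rats of that group, and without it the log2 fold change was 2.97 (adjusted p = 0.00992 in edgeR). The call was lost without CNT-7 rat 10 (adjusted p = 0.128 in edgeR) or without CNT-T rat 1, 2 or 12 (0.112, 0.123 and 0.132). Chac1, which degrades glutathione, was at 0.887 to 1.34 CPM after CNT-7, at 3.26 CPM in CNT-T rat 13 and at 0.758 to 0.946 CPM in the others of that group. Its direction turned with that rat, from a log2 fold change of -0.35 to 0.41 without it, and it was not called either way. Sesn2, a leucine sensor, Ppp1r15a, the phosphatase subunit that reverses eIF2 phosphorylation, and Eif4ebp1, a repressor of cap-dependent translation, had log2 fold changes of -0.09, 0.35 and 0.23 and were not called. Ppp1r15a was called higher without CNT-7 rat 3 (log2 fold change 0.48, adjusted p = 0.086 in edgeR). Its log2 fold change was 0.155 without CNT-7 rat 5.

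Of the 4 genes for asparagine and serine synthesis, the 3 serine enzymes were lower after CNT-7 (75.0%, beside 14.0% of all genes) and Asns was not called. Phgdh, the first enzyme of the pathway, was at 9.20, 8.28, 4.69 and 14.3 CPM in CNT-7 rats 3, 5, 10 and 11 and at 16.8, 21.2, 17.2 and 17.3 CPM in CNT-T rats 1, 2, 12 and 13. The groups did not overlap, with CNT-7 rat 10 lowest and CNT-7 rat 11 closest to the CNT-T rats. Phgdh had a log2 fold change of -0.99 (SE 0.27, adjusted p = 0.0287 in edgeR). Psph, which makes serine from phosphoserine, was at 27.5, 33.8, 36.0 and 31.9 CPM after CNT-7 and at 53.4, 61.2, 54.1 and 51.5 CPM after CNT-T. The groups were well apart, and rats within a group lay close together (log2 fold change -0.77, SE 0.10, adjusted p = 0.000851 in edgeR). Psat1, the transaminase between them, was at 4.83, 2.55, 2.49 and 7.10 CPM after CNT-7 and at 5.58, 9.99, 9.10 and 15.0 CPM after CNT-T. Here CNT-7 rat 11 lay above CNT-T rat 1, and CNT-T rat 13 was the highest. The log2 fold change of Psat1 was -1.23 (SE 0.39, adjusted p = 0.0499 in edgeR). Without CNT-T rat 13 it was -0.96 (adjusted p = 0.126), and the call was also lost without CNT-7 rat 5 or 10 (adjusted p = 0.122 and 0.104 in edgeR).

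Asns, which makes asparagine, did not follow the serine enzymes. It was at 8.31, 8.34, 10.1 and 9.70 CPM in CNT-7 rats 3, 5, 10 and 11 and at 3.62, 7.66, 6.30 and 13.4 CPM in CNT-T rats 1, 2, 12 and 13. The CNT-7 rats lay close together and inside the wide CNT-T range, whose upper end was rat 13. The log2 fold change was 0.24 (SE 0.32, adjusted p = 0.660 in edgeR), and it was 0.63 without CNT-T rat 13 (adjusted p = 0.106) and 0.0008 without CNT-T rat 1.

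**Figure D2:**
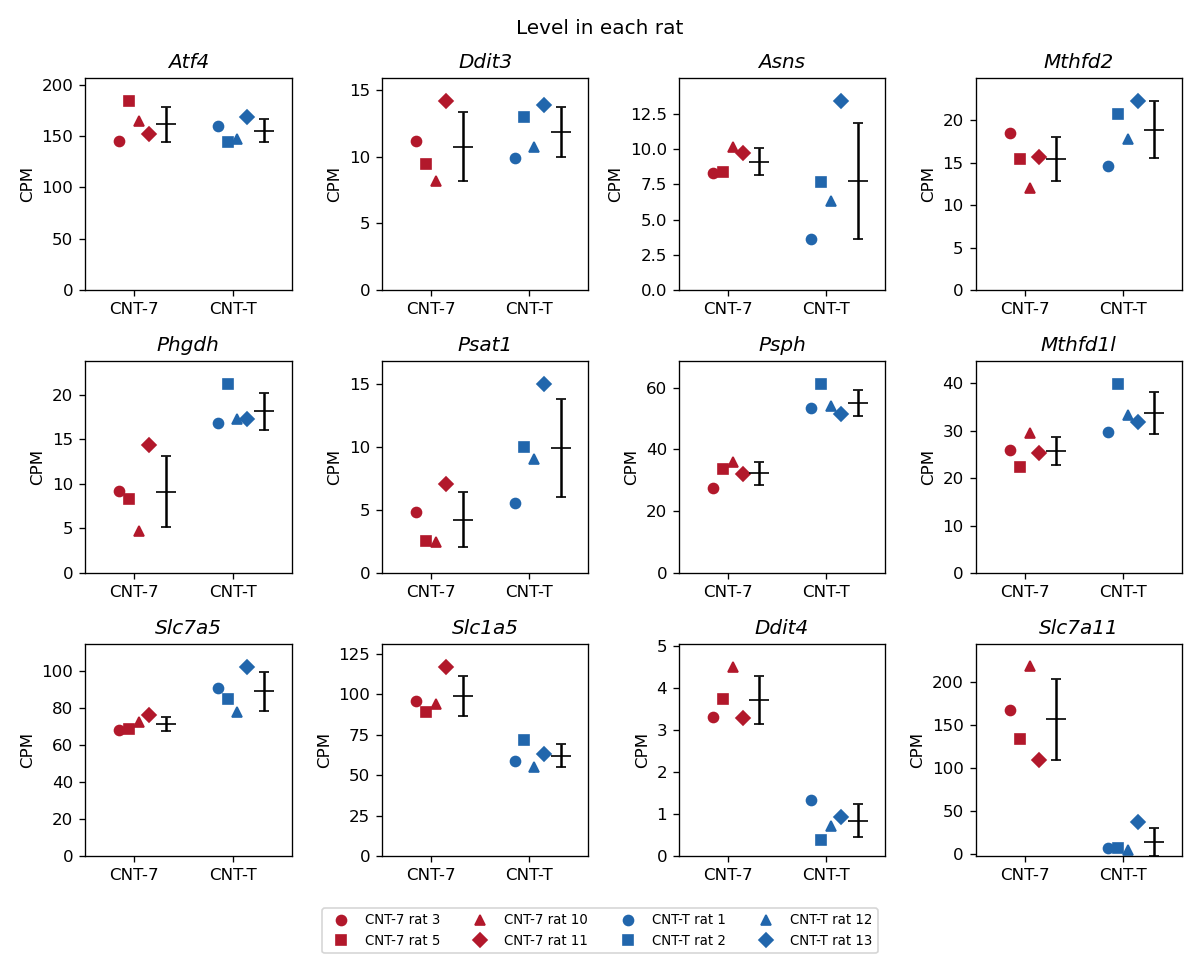
Level in CPM of 12 genes in each rat, with red for CNT-7 and blue for CNT-T, a symbol per rat, and black bars for the mean and SD of 4 rats. Psph, Phgdh and Slc1a5 separate the groups, while Atf4 and Ddit3 overlap and CNT-T rat 13 is the highest of its group for Asns, Psat1 and Slc7a11.

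Mitochondrial one-carbon enzymes, which pass the serine carbon on to formate, gave 1 call, lower after CNT-7, among 3 genes tested (33.3%, beside 14.0% of all genes). Mthfd1l, the formate-releasing enzyme, was at 25.9, 22.3, 29.5 and 25.2 CPM after CNT-7 (rats 3, 5, 10 and 11) and at 29.6, 39.8, 33.2 and 31.9 CPM after CNT-T (rats 1, 2, 12 and 13). CNT-7 rat 10 and CNT-T rat 1 nearly met, with no overlap. Its log2 fold change was -0.39 (SE 0.11, adjusted p = 0.0387 in edgeR). Mthfd2, the dehydrogenase before it, was at 18.5, 15.5, 12.1 and 15.6 CPM after CNT-7 and at 14.7, 20.7, 17.8 and 22.3 CPM after CNT-T. Its groups overlapped, with CNT-T rat 1 below CNT-7 rats 3, 5 and 11 (log2 fold change -0.29, SE 0.16, adjusted p = 0.237 in edgeR). Without CNT-T rat 1 the adjusted p of Mthfd2 was 0.0995. Shmt2, which splits serine to glycine in mitochondria, had means of 41.6 and 40.8 CPM.

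Proline, aspartate and transsulfuration genes gave no call. Aldh18a1, the first enzyme of proline synthesis, and Got1, the cytosolic aspartate transaminase, had log2 fold changes of -0.02 and -0.13, and Cbs, which starts transsulfuration, was under 1 CPM in every rat. Aldh1l2, Pycr1 and Cth did not pass the filter on low counts, with at most 0.644, 0.325 and 0.296 CPM in any rat. Over the 10 synthesis and one-carbon genes tested, 4 (40.0%) were called lower after CNT-7 and 0 higher, where 14.0% and 13.9% of all genes were called lower and higher. DESeq2 also called 4 of the 10.

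Of 5 amino acid transporters tested, 1 was higher after CNT-7, 1 was lower and 3 were not called. Each call was 20.0% of the list, beside 13.9% and 14.0% of all genes called higher and lower. Slc1a5, the glutamine carrier ASCT2, was at 95.7, 89.3, 94.1 and 117 CPM in CNT-7 rats 3, 5, 10 and 11. It was at 58.4, 71.4, 55.1 and 63.1 CPM in CNT-T rats 1, 2, 12 and 13. The groups did not overlap, and CNT-7 rat 11 was the highest (log2 fold change 0.68, SE 0.11, adjusted p = 0.00273 in edgeR). Slc7a5, the leucine carrier LAT1, was at 68.2, 68.8, 72.5 and 76.5 CPM after CNT-7 and at 91.2, 84.7, 78.1 and 102.5 CPM after CNT-T. The groups did not overlap, although CNT-7 rat 11 and CNT-T rat 12 lay close (log2 fold change -0.32, SE 0.09, adjusted p = 0.0323 in edgeR). Slc3a2, the heavy chain that carries LAT1 to the membrane, had means of 238 and 213 CPM and was not called. Slc7a1, a carrier of cationic amino acids, and Slc38a2, a carrier of small neutral ones, had log2 fold changes of -0.31 and 0.22 and were not called.

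None of the 13 tRNA charging genes, 12 cytosolic synthetases and the tRNA export factor Xpot, was called by edgeR or DESeq2, beside 27.9% of all genes in edgeR, and 1 had an unadjusted p under 0.05. The log2 fold changes ran from -0.27 for Yars to -0.02 for Nars. All 13 were below 0, also with the size factors of DESeq2 and with upper-quartile factors, and the median was -0.10. This did not hold in every fit with a rat left out. Nars, Sars, Mars and Xpot turned above 0 without CNT-7 rat 5, Nars and Mars without CNT-T rat 2, and Sars and Xpot without CNT-T rat 13. Yars was called without CNT-T rat 1 (adjusted p = 0.0432 in edgeR). In the mean log2 level of these 13 genes, CNT-T rats 13 and 2 were highest (0.18 and 0.14 relative to the mean of the 8 rats) and CNT-7 rat 5 was lowest (-0.18), with the other rats of both groups between.

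Upstream of the factor, 2 of 16 genes for eIF2 kinases and eIF2 machinery were lower after CNT-7 (12.5%, beside 14.0% of all genes) and 0 higher. The call of Nck1, an adaptor protein, was lost with some rats left out (adjusted p up to 0.130 in edgeR). The larger fall was that of Eif2ak4, the GCN2 kinase itself, at 10.1, 10.6, 10.3 and 10.4 CPM in CNT-7 rats 3, 5, 10 and 11 and at 12.03, 12.5, 15.7 and 15.5 CPM in CNT-T rats 1, 2, 12 and 13. The CNT-7 rats were nearly level and all below the CNT-T rats (log2 fold change -0.43, SE 0.11, adjusted p = 0.0229 in edgeR). The PERK gene Eif2ak3 had means of 32.2 and 31.0 CPM.

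Of 16 other stress factors and targets tested, 4 were higher after CNT-7 (Atf3, Slc7a11, Vegfa and Sqstm1) and 1 was lower (Gpt2). These were 25.0% and 6.25% of the list, beside 13.9% and 14.0% of all genes. DESeq2 called 6 of the list, adding Gdf15 as lower (adjusted p = 0.0458 in DESeq2). In edgeR Gdf15 had the largest fall of the list and was not called (log2 fold change -1.92, adjusted p = 0.141). CNT-T rat 13 was at 6.55 CPM for it, against 0.391 to 1.09 CPM in the rest of that group. Without that rat its log2 fold change was -0.29. The call of Sqstm1 was lost without CNT-7 rat 5 or without CNT-T rat 1, 2 or 12 (adjusted p up to 0.119 in edgeR). Slc7a11, the cystine carrier xCT, which is also a target of NRF2, was at 167, 133, 218 and 109 CPM in CNT-7 rats 3, 5, 10 and 11 and at 6.72, 6.98, 4.25 and 37.5 CPM in CNT-T rats 1, 2, 12 and 13. Every CNT-7 rat was far above every CNT-T rat, and CNT-T rat 13 stood above the rest of its group. The log2 fold change was 3.51 (SE 0.65, adjusted p = 0.00529 in edgeR), and it was 4.71 without CNT-T rat 13 (adjusted p = 0.000227). Gpt2, the mitochondrial alanine transaminase, was at 3.02, 4.05, 3.68 and 2.06 CPM after CNT-7 and at 4.63, 4.55, 5.14 and 4.62 CPM after CNT-T. These groups did not overlap (log2 fold change -0.56, adjusted p = 0.0854 in edgeR), and with rats left out in turn its adjusted p reached 0.182.

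Among the remaining synthetases, 2 of 8 cytosolic genes (Vars and Rars) and 1 of 17 mitochondrial genes (Pars2) were lower after CNT-7, 25.0% and 5.88% beside 14.0% of all genes. Vars, for valine, was at 62.4, 65.4, 66.2 and 75.8 CPM in CNT-7 rats 3, 5, 10 and 11 and at 79.8, 89.6, 78.5 and 75.1 CPM in CNT-T rats 1, 2, 12 and 13. Pars2, for proline in mitochondria, was at 6.90, 7.002, 7.19 and 9.05 CPM in the former and at 8.74, 10.7, 11.4 and 9.67 CPM in the latter. In both genes CNT-7 rat 11 was the highest of its group and reached into the CNT-T range. Vars had a log2 fold change of -0.26 (adjusted p = 0.0531 in edgeR) and Pars2 one of -0.43 (adjusted p = 0.0495), and both calls were lost with some rats left out (up to 0.134 and 0.132). That of Rars was lost in the same way (up to 0.216 in edgeR) and with no filter on low counts (0.106). Of 24 genes for amino acid sensing by mTORC1, 2 were higher (Castor2 and Sesn3), 8.33% beside 13.9% of all genes. The call of Sesn3 was lost with 6 of the 8 rats left out in turn (adjusted p up to 0.151 in edgeR). Castor2, a relative of the arginine sensor Castor1, was at 2.00, 2.55, 2.74 and 1.74 CPM after CNT-7 and at 1.40, 1.63, 1.78 and 1.18 CPM after CNT-T. CNT-7 rat 11 lay below CNT-T rat 12. Castor2 had a log2 fold change of 0.59 (adjusted p = 0.0984 in edgeR). This call was lost with upper-quartile factors, with no filter on low counts and with a block for the range of the rat numbers. It was also lost in every fit with a rat left out, except the fit without CNT-7 rat 11.

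Of 16 genes tested for folate metabolism and glycine cleavage, some of them mitochondrial, 5 were lower after CNT-7 (31.2%, beside 14.0% of all genes), 0 were higher and 11 were not called, with a median log2 fold change of -0.08. Tyms, which makes thymidylate, is counted both here and among the cell cycle markers. All 19 cell cycle markers tested were lower after CNT-7, beside 14.0% of all genes, with a median log2 fold change of -1.16. The call of Mcm3 was lost without CNT-7 rat 5 or without CNT-T rat 2 or 12 (adjusted p up to 0.118 in edgeR), and the other 18 were called in every fit with a rat left out. Top2a, the mitotic topoisomerase, was at 64.5, 53.5, 48.8 and 105.8 CPM in CNT-7 rats 3, 5, 10 and 11 and at 227, 194, 219 and 230.0 CPM in CNT-T rats 1, 2, 12 and 13. The groups were well apart (log2 fold change -1.68, SE 0.22, adjusted p = 0.00107 in edgeR). The mean log2 level of the cell cycle markers, relative to the mean of the 8 rats, was -0.49, -0.85, -1.09 and -0.01 in CNT-7 rats 3, 5, 10 and 11 and 0.51, 0.62, 0.63 and 0.68 in CNT-T rats 1, 2, 12 and 13. Rats 10 and 11 were the ends of the CNT-7 group here and for Phgdh and Psat1, whereas rat 10 was the highest of that group for Psph and Mthfd1l. In these bulk samples, fewer dividing cells and less RNA of these genes per cell cannot be told apart, and the part of cell cycling in the lower serine synthesis genes was not tested.

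**Figure D3:**
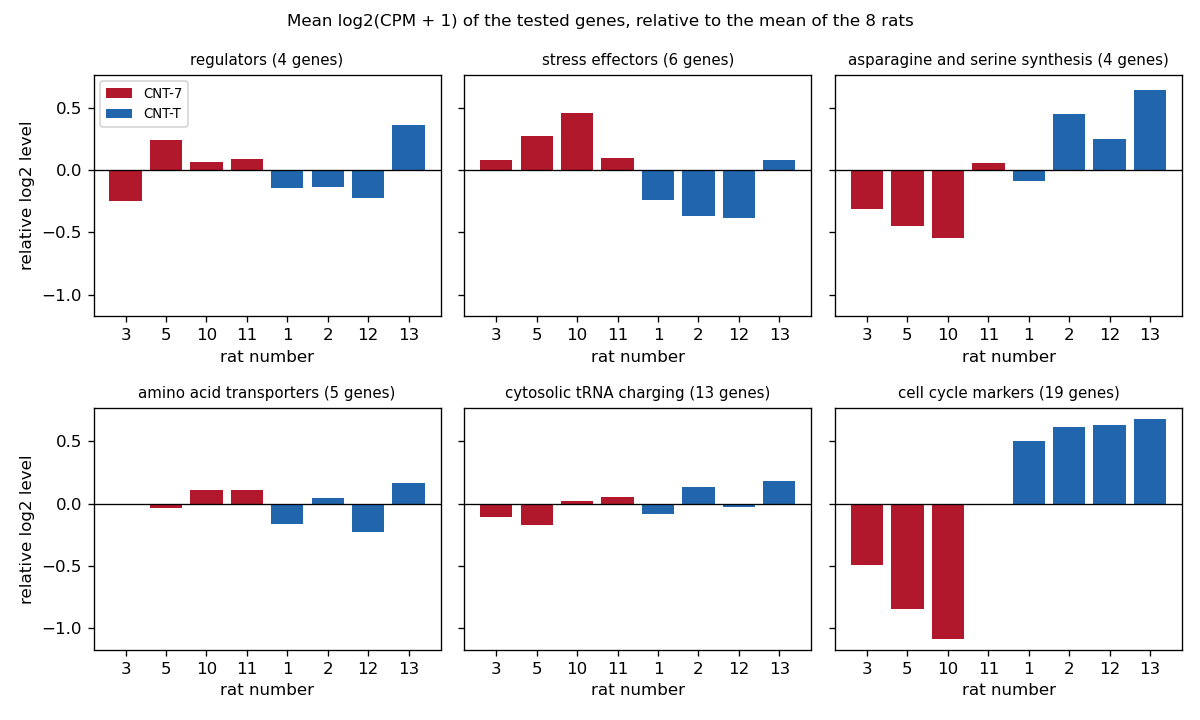
Mean log2(CPM + 1) of the tested genes of 6 lists in each rat, relative to the mean of the 8 rats, with red bars for CNT-7 and blue for CNT-T. Asparagine and serine synthesis is lowest in CNT-7 rat 10 (-0.55) and highest in CNT-T rat 13 (0.64), and the cell cycle markers are lowest in CNT-7 rat 10 (-1.09).

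Markers of other cells were set beside these values as summed CPM per rat. The list of 7 T and NK cell genes found, whose most abundant gene was Lck, summed to 5.19, 11.4, 6.39 and 4.42 CPM in CNT-7 rats 3, 5, 10 and 11 and to 4.27, 4.11, 3.99 and 3.97 CPM in CNT-T rats 1, 2, 12 and 13, with Gzmb at 0 in every rat. Lck itself was not called, with means of 2.88 and 3.42 CPM, and Cd2 was called higher, with means of 2.22 and 0.194 CPM. The T and NK sums were higher in all CNT-7 rats (exact permutation p = 0.0286, the smallest that 70 divisions allow, and 0.105 after Benjamini-Hochberg adjustment over 11 lists). The macrophage list of 10 genes, led by Lyz2, and the monocyte list of 5 genes, led by Plac8 and with Cd177 at 0, were lower in all CNT-7 rats (exact permutation p = 0.0286 and adjusted p = 0.105 for each). The macrophage sums were 24250, 24670, 24340 and 17560 CPM in CNT-7 rats 3, 5, 10 and 11 and 36400, 27900, 31170 and 26310 CPM in CNT-T rats 1, 2, 12 and 13. Without Plac8 the monocyte sum turned to higher after CNT-7 (exact permutation p = 0.743). With it, the monocyte sums were 2831, 2617, 3247 and 2869 CPM in the former and 3590, 3553, 3587 and 3582 CPM in the latter. The adjusted exact permutation p was 0.180 for each of the eosinophil, B cell, dendritic cell, and mesothelial and fibroblast lists, 0.471 for the erythroid list and 0.571 for each of the neutrophil, mast cell, and RNA quality and stress lists. In every rat Csf3r was at least 69.2% of the neutrophil sum. S100a8 of that list was called lower after CNT-7, with means of 2.24 and 6.17 CPM (log2 fold change -1.46, adjusted p = 0.0159 in edgeR). S100a9, Csf3r, Elane and Cxcr2 were not called. Of 4 dendritic cell genes tested, Ccr7, Clec9a and Batf3 were called higher after CNT-7, with log2 fold changes of 3.80, 1.76 and 0.78, and Zbtb46 was not called. The call of Batf3 was lost with some rats left out (adjusted p up to 0.122 in edgeR). The RNA quality and stress list of 6 genes summed to 634 CPM in CNT-T rat 13, against 154 to 238 CPM in the rest of its group, and its most abundant gene was Hspa1b. Without Hspa1b the sums were 235, 358, 311 and 221 CPM in CNT-7 rats 3, 5, 10 and 11 and 167, 178, 147 and 186 CPM in CNT-T rats 1, 2, 12 and 13. All CNT-7 rats were then higher (exact permutation p = 0.0286, adjusted p = 0.105). Fos, Jun and Junb were called higher after CNT-7, with log2 fold changes of 2.28, 1.51 and 0.93, and Egr1 was called lower (-1.86). The part of these markers in the results was not tested.

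Promoters from RefSeq (build GRCr8, 250 bases before to 50 bases after the start) were matched for 35 of the 41 members. The C/EBP-ATF response element was searched as TGATGNAAN on both strands. It was held by 12 of the 35 member promoters (34.3%) and by 1328 of all 33469 promoters (3.97%). The 12 were those of Trib3, Chac1, Pycr1, Got1 and Slc7a1 and of the synthetase genes Aars, Nars, Iars, Mars, Cars, Tars and Yars. Of these 12 genes Pycr1 was not tested and the other 11 were not called, beside 27.9% of all genes called in either direction. Eif4ebp1, Aldh1l2, Aldh18a1, Slc1a5, Gars and Xpot had no matched promoter.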

How the data were processed

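Libraries of sorted peritoneal macrophages from 8 rats were analysed. The deposited values were estimated counts per gene, which the authors made with Salmon (version not given in the sources used here) against Ensembl cDNA of Rnor_6.0, given as whole numbers. Members and lists were chosen with earlier results of these data known. Genes were kept by filterByExpr (minimum count 10, minimum total 15), scaled with TMM and tested in R 4.3.3 with edgeR 4.0.16 (quasi-likelihood), with Benjamini-Hochberg adjustment over 12124 genes and a threshold of 0.10. CPM used TMM library sizes. Alternatives were DESeq2 1.42.0, upper-quartile factors, other filters and thresholds, a block for the range of the rat numbers, and fits leaving out single rats. Values of every rat were given for called members without overlap and at least 1 CPM, for 8 genes fixed by name, and for the largest rise and fall of other lists, except that a gene taken by this rule is not reported here. Those of Trib3 were added after seeing the data. Marker sums were tested by exact two-sided permutation. The edgeR test was also run on simulated data, and the outcome is not reported here.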

Additional observations from a re-analysis of the deposited data

Results flagged for a closer look

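The search covered 92 groups of 4 rats, for the members tested and the genes taken from other lists by the rule above. Of these groups, 9 had a rat far from the other 3, where chance gives about 1 in 20 groups. That rate is for independent groups, and these groups share the same rats, so an excess over chance was not tested. The values below are the gap to the nearest rat divided by the range of the group. CNT-T rat 13 was highest in 4 of them, for Trib3 (0.88), Chac1 (0.925), Vldlr (0.897) and Slc7a11 (0.918, at 37.5 CPM against 4.25 to 6.98 CPM). CNT-T rat 2 was highest for Phgdh (0.894, at 21.2 CPM against 16.8 to 17.3 CPM) and CNT-T rat 12 for Gpt2 (0.869). CNT-7 rat 10 was highest for Slc3a2 (0.842, at 271 CPM against 223 to 231 CPM). CNT-7 rat 11 was highest for Wars (0.874) and Pars2 (0.866).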

How the results depend on the processing

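The count of genes called, 3383, was 1006 when at least a 2-fold change was also required, and the members lower after CNT-7 then fell to 1, the synthesis and one-carbon members called to 1. With each rat left out in turn, genes called ran from 2578 to 3515, members higher after CNT-7 from 2 to 4, members lower from 4 to 7, synthesis and one-carbon members called from 3 to 5, tRNA charging members called from 0 to 1, and the median log2 fold change of the members from -0.13 to -0.03. The tRNA charging call was Yars without CNT-T rat 1 and Cars without CNT-T rat 12. DESeq2 called 3633 genes. The log2 fold change of Atf4 ran from -0.0134 (without CNT-7 rat 5) to 0.1049 (without CNT-7 rat 3), and the cause of the turn was not tested. Without its most abundant gene the monocyte sum turned to higher after CNT-7 (exact permutation p = 0.743) and the neutrophil sum to lower (0.143), and the RNA quality and stress sum was higher in all CNT-7 rats (exact permutation p = 0.0286). The shorter core TGATGNAA drops only a letter that any base fills, so it could differ only at a promoter's edge. No paired analysis was possible because the groups share no rat number in the labels. Levels under 1 CPM rest on few counts.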
